A study of Mus musculus with 2 samples.

Results

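Mir99a, Mir99b, Mir100, Mir125a, Mir125b-1 and Mir125b-2 are the 6 mouse genes for the miRNAs of the miR-99/100 and miR-125 families that lie at 3 loci together with a let-7 gene. They were chosen by gene name in the GENCODE M21 annotation, and all 6 were found among the 2202 miRNA genes counted. The counts come from small RNA libraries of the gastrocnemius, a calf muscle, of 2 female mice of the F1 hybrid strain B6CASTF1/J, each 10 days old. Per the labels the starting material was total RNA and RNA below 30 bases was selected, and biological replicates 1 and 2 are different females. All samples form 1 untreated group, so the data give levels, the spread between the animals and the difference between the 2 libraries.

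A miRNA guides Argonaute proteins to messenger RNAs, chiefly through its seed, bases 2 to 8 counted from 1 at its 5′ end. The miR-125 family descends from lin-4, the founding miRNA of the nematode developmental timing pathway, and let-7 acts in the same pathway. The miR-99/100 family is an ancient family with mTOR among its known targets, and its sequences resemble those of the miR-10 family. In vertebrates the 3 kinds of gene lie side by side and can be cut from a common primary transcript. miR-125b is known to slow the differentiation of cultured myoblasts.

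The mature 5p miRNAs show how the genes fall into 2 seed groups, and they decide which reads can be assigned to 1 gene. RefSeq on build GRCm38.p6 holds mature sequences for all 6 genes. They are printed 5′ to 3′ with the seed in capitals, and miR-351-5p is added because it carries the miR-125 seed.

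miR-99a-5p: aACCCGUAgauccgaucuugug

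miR-100-5p: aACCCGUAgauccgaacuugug

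miR-99b-5p: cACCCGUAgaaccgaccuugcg

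miR-125a-5p: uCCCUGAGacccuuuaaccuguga

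miR-125b-5p: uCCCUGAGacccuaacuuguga

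miR-351-5p: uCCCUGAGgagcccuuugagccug

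miR-99a-5p and miR-100-5p differ at a single base, U16A, with miR-99a-5p as the reference. miR-99b-5p differs from miR-99a-5p at 4 bases, A1C, U11A, U16C and U21C, none of them in the seed. miR-125a-5p and miR-125b-5p share their first 13 bases and are 24 and 22 bases long. The 5p miRNAs of Mir99a, Mir100, Mir99b and Mir125a each occur in 1 annotated mouse precursor. The sequence of miR-125b-5p occurs in 2, Mir125b-1 and Mir125b-2. With 1 mismatch allowed, miR-99a-5p matches the Mir99a and Mir100 precursors and no other.

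The copies Mir125b-1 and Mir125b-2 need a closer look, since the files keep reads that aligned to several places in a summary line apart from the genes. Their precursors share a longest stretch of 24 bases. The stretch holds 2 bases before the 5p miRNA and all 22 bases of it, and it stops at the annotated 3′ end. A read that lies within it matches both precursors equally. Reads that reach past it, or that come from the 3p arm, need not. The 3p miRNAs differ at 5 of 22 bases, and each occurs in 1 precursor. The counts per gene do not give the arm of a read.

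**Figure D1:**
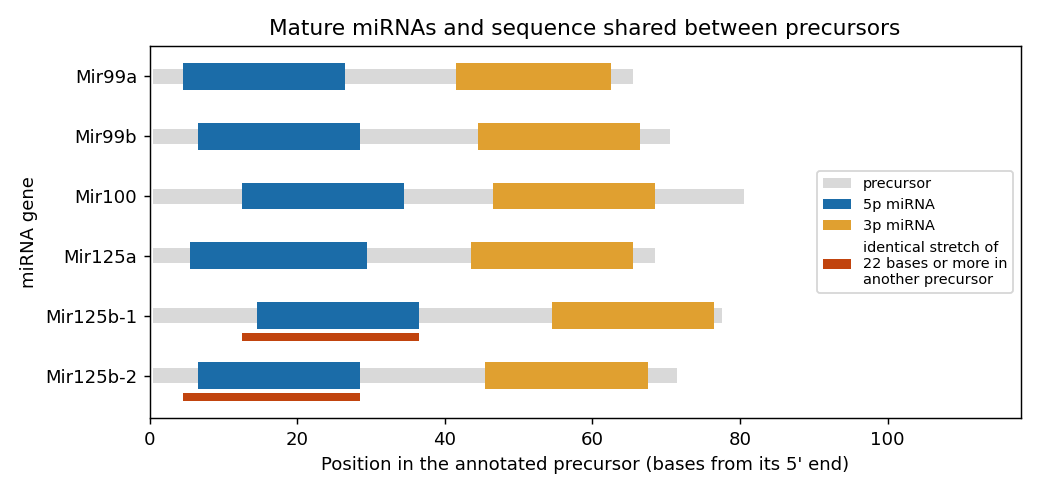
Annotated precursors of the 6 genes drawn to scale in bases from the 5′ end, with the 5p miRNA in blue, the 3p miRNA in yellow and stretches identical to another precursor for 22 bases or more in red. Only Mir125b-1 and Mir125b-2 carry such a stretch, 24 bases over the 5p miRNA, and the other 4 precursors carry none.

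Reads placed at a single site were counted on the sense strand, 3510897 in replicate 1 and 3949733 in replicate 2, and levels are given as CPM, counts per 1000000 of these reads. Reads aligned to several places made up 42.6% and 46.4% of the libraries. Intervals cover counting error only. The 9 skeletal muscle miRNAs on the marker list, led by Mir206, a miRNA restricted to that tissue, held 11.7% of the counted reads in replicate 1 and 9.61% in replicate 2, and 8 of them reached 2 CPM in both animals. Nearly all of that share was Mir206, and the other 8 genes summed to 709.5 and 832.0 CPM. These 8 include copies of Mir1a and of Mir133a, whose counts may lack reads that match more than 1 copy. The shares of all lists therefore hold for reads placed at a single site only. Lists for other cells held smaller shares in replicates 1 and 2. Endothelium stood at 4.20% and 4.63%, all of it Mir126a, since the other gene listed, Mir126b, had 0 reads in both libraries. Smooth muscle and stroma stood at 2.75% and 3.28%. The erythroid list held 0.207% and 0.187%, the leukocyte list 0.110% and 0.0974%, and the neural and glial list 0.0296% and 0.0547%. The epithelial list held 0.0197% and 0.0125%, and the liver miRNA Mir122 0.0491% and 0.0176%. In bulk tissue, fewer cells of a type and less RNA per cell cannot be told apart.

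All 6 genes were detected, at 2 CPM or more in both animals, as were 332 of the 2202 genes in all. Their summed share of the counted reads was 3.66% (Wilson 95% interval, 3.64% to 3.68%) for the first animal and 3.72% (3.70% to 3.74%) for the second. The miR-99/100 genes made up most of this, with 3.41% ± 0.0738 of the counted reads (SD, n = 2). The miR-125 genes held 0.283% ± 0.0330 (SD, n = 2), a value that may lack reads of miR-125b-5p, which match both copies.

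Mir99a was the highest of the 6, with 80508 and 95559 reads in replicates 1 and 2, or 22931 and 24194 CPM. Its mean of 23562 ± 893 CPM (SD, n = 2) placed it 12th among all miRNA genes, by reads placed at a single site. Genes whose reads align to several places may stand too low in this order, and all ranks given here carry that limit. The animals lay close together, with an SD of 3.79% of the mean. Mir99a alone supplied 63.8% ± 1.71 of the counted reads of the 6 genes, from which reads matching both Mir125b copies may be missing.

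Mir100, whose 5p miRNA differs from that of Mir99a at position 16 alone, came next with 6086 and 6507 CPM. Its mean was 6296 ± 297 CPM (SD, n = 2), rank 27. Both animals gave it far less than Mir99a, by 3.77-fold in replicate 1 and 3.72-fold in replicate 2. Reads of the 2 genes can be told apart only at that base or outside the shared stretch. How many mismatches the alignment allowed is not given in the sources used here, so an exchange of reads between them was not tested.

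Mir99b was the lowest of the miR-99/100 genes, with 4540 CPM in replicate 1 and 3900 CPM in replicate 2. Its mean was 4220 ± 453 CPM (SD, n = 2), rank 39. Mir100 exceeded it in both animals, by 1.34-fold in replicate 1 and 1.67-fold in replicate 2. The 2 genes did not overlap, since the lower value of Mir100, 6086 CPM, lay above the higher value of Mir99b.

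Mir125a, the single-copy gene of its family, had 9179 and 8375 reads, or 2614 and 2120 CPM. Its mean was 2367 ± 349 CPM (SD, n = 2), rank 56, and its SD of 14.8% of the mean was the largest of the 6. Replicate 1 was the higher animal for Mir125a, as it was for Mir99b.

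Mir125b-1 had 1205 and 1477 reads, or 343.2 and 373.9 CPM, with a mean of 358.6 ± 21.7 CPM (SD, n = 2). Mir125b-2 had 384 and 418 reads, or 109.4 and 105.8 CPM, with a mean of 107.6 ± 2.51 CPM (SD, n = 2). Mir125b-1 was higher by 3.14-fold in replicate 1 and 3.53-fold in replicate 2. The counts do not show which reads lie behind them, and reads within the 24 shared bases may be missing, so they rank neither the copies nor miR-125b against the other miRNAs. Mir125a stood 6.64 ± 1.38-fold above Mir125b-1 and 21.97 ± 2.73-fold above Mir125b-2 in counted reads, under the same limit.

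In counted reads, no neighbours in this order overlapped between the animals. The order was Mir99a, Mir100, Mir99b, Mir125a, Mir125b-1 and Mir125b-2 in each library. The places of Mir125b-1 and Mir125b-2 hold for counted reads only, since reads within their shared stretch may be missing. With 2 animals an exact paired test cannot give a two-sided p below 0.5. A small RNA read spans its miRNA, so CPM was not divided by length. Per base of the annotated precursor the order was the same, at 362.5 ± 13.7 CPM per base for Mir99a, 78.7 ± 3.72 for Mir100, 60.3 ± 6.47 for Mir99b, 34.8 ± 5.14 for Mir125a, 4.66 ± 0.282 for Mir125b-1 and 1.52 ± 0.0353 for Mir125b-2.

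**Figure D2:**
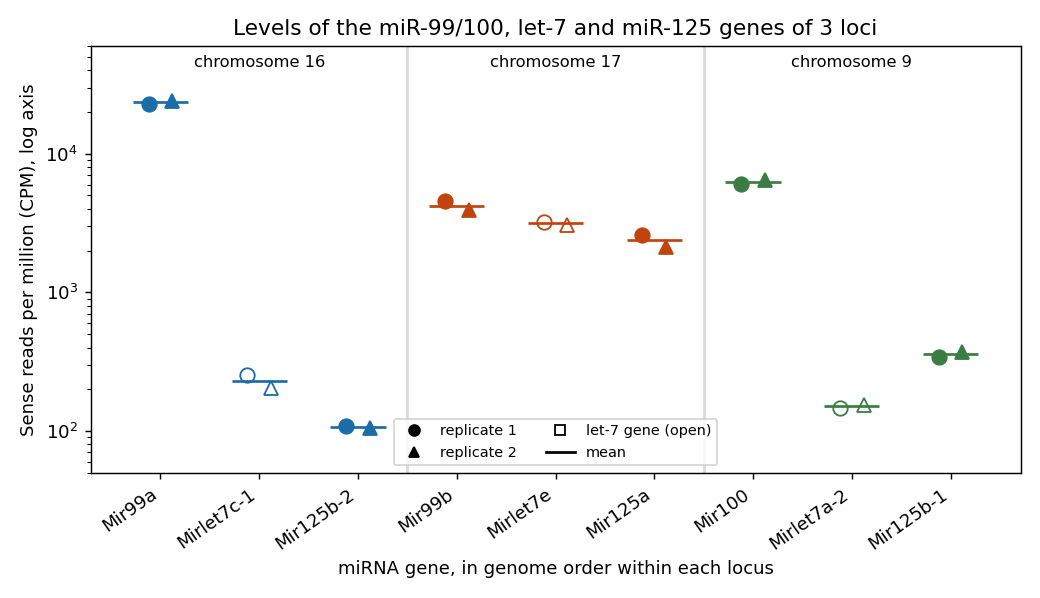
CPM on a log axis for each gene of the 3 loci, with circles for replicate 1, triangles for replicate 2, lines for the mean, and open symbols for the let-7 genes. Mir99a stands at 22931 and 24194 CPM, while the chromosome 17 genes lie between 2120 and 4540 CPM and the copies Mir125b-1 and Mir125b-2 at or below 373.9 CPM.

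In level, the genes next to each member came from other families. Mir99a lay between Mir143, a miRNA of smooth muscle and stroma (25998 ± 4515 CPM), and Mir26b (22658 ± 1966 CPM), and both neighbours overlapped it between the animals. Mir100 lay between Mir30a (6619 ± 834 CPM) and Mir130a (6138 ± 242 CPM). Mir99b lay between Mir483, encoded in an intron of Igf2 (4400 ± 1001 CPM), and Mir376c (4183 ± 422 CPM). Mir125a lay between Mir27b (2372 ± 144 CPM) and Mir195a (2328 ± 9.92 CPM). Mir125b-1 lay between Mir503 (378.6 ± 41.7 CPM) and Mir128-2 (352.9 ± 2.44 CPM), and Mir125b-2 between Mir137 (107.7 ± 87.5 CPM) and Mir223, a miRNA of myeloid cells (107.0 ± 30.3 CPM). With 2 libraries of 1 group there is no pattern across conditions to compare, so likeness here means level alone.

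**Figure D3:**
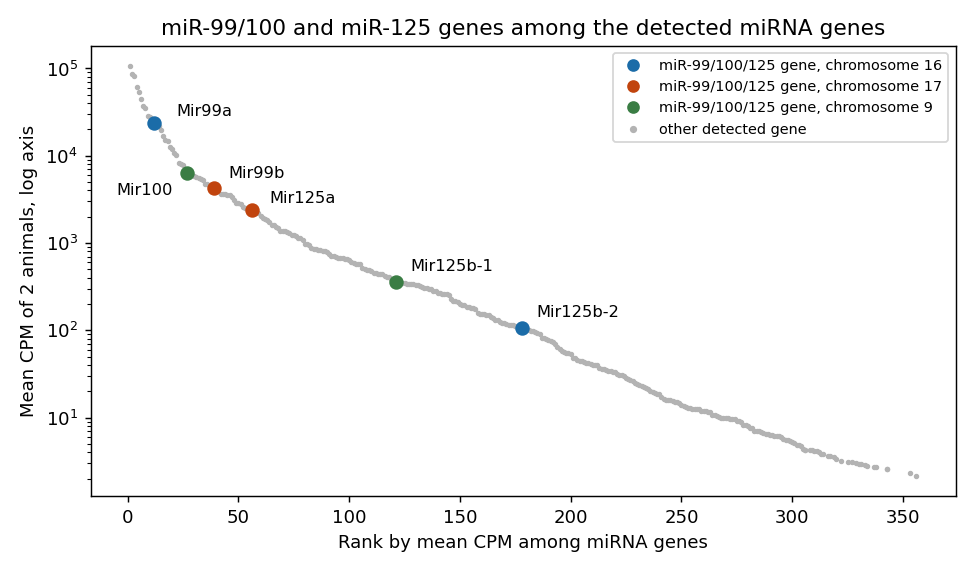
Mean CPM of the 2 animals on a log axis against rank, for the detected miRNA genes in grey and the miR-99/100 and miR-125 genes in colour by chromosome. Mir99a sits at rank 12, Mir100 at 27, Mir99b at 39 and Mir125a at 56, and Mir125b-1 and Mir125b-2 at 121 and 178. Only reads placed at a single site enter the ranks, so genes whose reads align to several places may stand too low.

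The 3 loci have the same gene order, a miR-99/100 gene, then a let-7 gene, then a miR-125 gene, all on the plus strand of build mm10. They differ in spacing. On chromosome 17, Mir99b (ENSMUSG00000065396.1, 17830188 to 17830257), Mirlet7e (17830352 to 17830444) and Mir125a (ENSMUSG00000065479.2, 17830812 to 17830879) fit into 692 bases. They lie in Spaca6, a protein-coding gene named for sperm acrosome association. Mir99b and Mirlet7e are intronic, and Mir125a overlaps an exon of an annotated Spaca6 transcript. On chromosome 16, Mir99a (ENSMUSG00000065530.1, 77598936 to 77599000) and Mirlet7c-1 (77599657 to 77599750) are 656 bases apart, and Mir125b-2 (ENSMUSG00000065472.1, 77646273 to 77646343) follows after 46.5 kb. All lie in introns of the non-coding host gene Mir99ahg. Mir125b-2 also overlaps the edge of C130023A14Rik, an unverified transcript on the same strand. On chromosome 9, Mir100 (ENSMUSG00000093011.1, 41531425 to 41531504) precedes Mirlet7a-2 (41536716 to 41536811) by 5.21 kb, and Mir125b-1 (ENSMUSG00000093354.1, 41581926 to 41582002) follows after 45.1 kb. These lie in introns of the non-coding genes 3110039I08Rik and Gm49317. Mir125b-1 also overlaps an exon of Gm28119, and on the opposite strand Mir100 overlaps an exon of Gm48742. No antisense read was counted on any of the 6 genes in either library.

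The let-7 genes of the loci stood at different levels. Mirlet7e had 3206 and 3076 CPM, Mirlet7c-1 252.1 and 205.1 CPM, and Mirlet7a-2 146.7 and 154.7 CPM. Their 5p miRNAs share the let-7 seed, in capitals here.

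let-7e-5p: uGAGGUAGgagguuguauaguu

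let-7c-5p: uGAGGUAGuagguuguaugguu

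let-7a-5p: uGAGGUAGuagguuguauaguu

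let-7c-5p also lies in Mirlet7c-2 (450.9 ± 64.8 CPM) and let-7a-5p also in Mirlet7a-1 (193.9 ± 24.7 CPM), so the counts of Mirlet7c-1 and Mirlet7a-2 may lack reads that match both copies. Of the let-7 list, 12 of 14 symbols matched a counted gene by name, and these 12 genes held 13.2% ± 0.143 of the counted reads. The let-7 genes of the 3 loci held 0.352% ± 0.0119.

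Chromosome 17 is the locus in which none of the 3 genes shares 18 or 22 bases with a precursor at another place. With 1 mismatch allowed, let-7e-5p also matches the precursors Mirlet7a-1 and Mirlet7a-2, and an exchange of reads with them was not tested. Under that limit the 3 genes were compared within the locus. There Mir99b exceeded Mirlet7e by 1.42-fold in replicate 1 and 1.27-fold in replicate 2, and Mirlet7e exceeded Mir125a by 1.23-fold and 1.45-fold. Per base of the precursor, Mirlet7e and Mir125a stood at 0.979 ± 0.116 to 1 (SD, n = 2), so their order depends on the scale, while Mir99b stayed above both. The ratio of Mir99b to Mir125a varied little, at 1.74 in replicate 1 and 1.84 in replicate 2. Mirlet7e is covered on the opposite strand by the annotated gene Gm25927, which had 0 sense reads in both libraries. Counted without strand, the 11257 and 12151 reads of Mirlet7e became ambiguous and its count was 0, while the counts of the 6 genes stayed as they were.

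At the other loci the miR-99/100 gene stood much further above its neighbours, and there the 5p miRNAs of the let-7 and miR-125 genes also lie in another gene. Mir99a exceeded Mirlet7c-1 by 104.5 ± 19.1-fold and Mir125b-2 by 219.1 ± 13.4-fold in counted reads. Mir100 exceeded Mirlet7a-2 by 41.8 ± 0.403-fold and Mir125b-1 by 17.6 ± 0.236-fold. The let-7 and miR-125 genes of these loci lay closer together and in opposite order, with Mirlet7c-1 above Mir125b-2 by 2.12 ± 0.259-fold and Mir125b-1 above Mirlet7a-2 by 2.38 ± 0.0548-fold. The part of reads that align to several places in these ratios was not tested.

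Of the 6 genes, 2 share a window of 22 bases with another precursor, and so do 59 of the 332 detected genes (17.8%). These 2, Mir125b-1 and Mir125b-2, had the fewest counted reads of the 6. Whether the shared sequence lowers their counts was not tested. Over windows of 18 bases the same 2 genes share sequence, in 7 windows each, and 84 detected genes do (25.3%).

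Within the miR-99/100 seed group, ACCCGUA, no other gene of the RefSeq table carries the seed. In replicates 1 and 2, Mir99a held 68.3% (Wilson 95% interval, 68.1% to 68.6%) and 69.9% (69.7% to 70.2%) of the group's reads. Mir100 held 18.1% (17.9% to 18.4%) and 18.8% (18.6% to 19.0%). Mir99b held 13.5% (13.3% to 13.7%) and 11.3% (11.1% to 11.4%). The intervals of the libraries did not overlap for any of the 3 genes, and the largest shift was that of Mir99b.

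The miR-125 seed, CCCUGAG, is carried by 3 further genes, Mir351, Mir6367 and Mir6394. Mir6367 and Mir6394 had 0 reads in both libraries, for which 3 counts set upper limits of 0.854 and 0.760 CPM. These limits hold for reads placed at a single site only, so they do not show absence. Mir351, an X-linked gene near Mir322 and Mir503, stood at 6776 CPM in replicate 1 and 5052 CPM in replicate 2, with a mean of 5914 ± 1219 CPM (SD, n = 2). It exceeded Mir125a by 2.59-fold and 2.38-fold, and the 3 miR-125 genes together by 2.21-fold and 1.94-fold. Of the counted reads of this seed group, Mir351 thus held 68.8% (68.3% to 69.3%) and 66.0% (65.5% to 66.6%). Mir125a held 26.6% (26.1% to 27.0%) and 27.7% (27.2% to 28.2%). Reads of miR-125b-5p that match both copies may be missing from the group, so these shares do not rank miR-125 below miR-351.

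**Figure D4:**
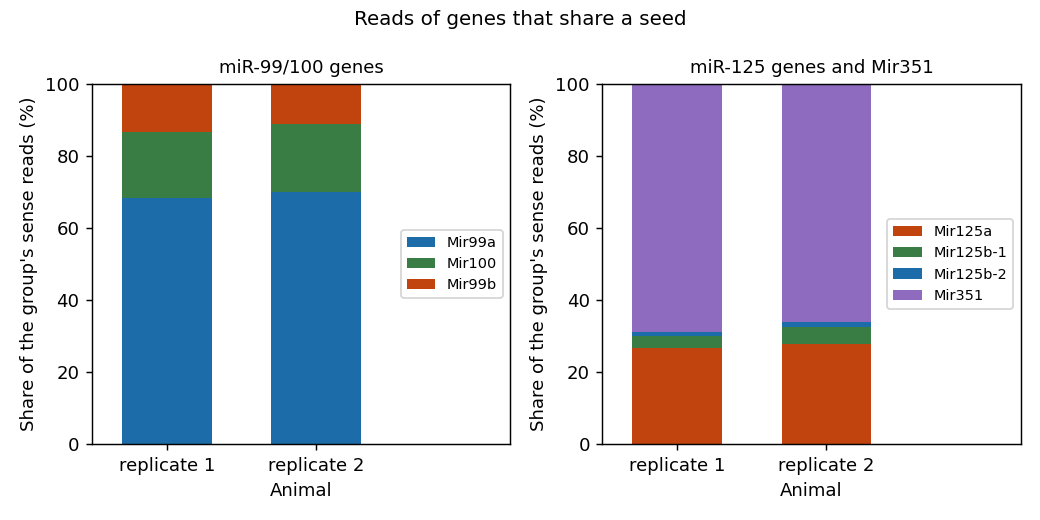
Stacked shares, in percent, of the sense reads of genes with the same seed in each animal, with the miR-99/100 genes on the left and the miR-125 genes with Mir351 on the right. Mir99a holds 68.3% and 69.9% of its group, and Mir351 holds 68.8% and 66.0% of the other, from which reads matching both Mir125b-1 and Mir125b-2 may be missing.

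miR-10, the closest relative of miR-99/100, is encoded in Hox clusters and has 1 base more near the 5′ end, which gives it another seed. The relatives are shown to make the shift visible.

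miR-10a-5p: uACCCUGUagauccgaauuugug

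miR-10b-5p: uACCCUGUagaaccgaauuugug

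miR-100-5p and miR-10a-5p share a run of 11 bases that starts at base 6 of miR-100-5p and at base 7 of miR-10a-5p. miR-99b-5p and miR-10b-5p share a run of 10 bases at the same places. Mir10b stood at 4757 ± 26.3 CPM and Mir10a at 2497 ± 184 CPM (SD, n = 2). The miR-99/100 genes together exceeded the miR-10 genes together by 4.70-fold in each animal.

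Between the libraries, no member differed by 2-fold, and the members did not all move in the same direction. The comparison used a two-sided exact conditional binomial test over 395 genes with Benjamini-Hochberg adjustment, and it compares the reads of these 2 libraries, each of 1 animal, not conditions. At an adjusted p under 0.05 with no fold limit, 4 of the 6 genes were called, against 163 of all genes tested (41.3%) and 124 of the 181 tested genes of at least 100 CPM (68.5%). All 6 genes exceed 100 CPM, and their share of 66.7% was close to that of genes at such levels. With a limit of 2-fold it was 0 of 6, against 28 of all genes (7.09%). Of the 181 tested genes of at least 100 CPM, 2 were called with that limit, so such calls were rare at the members' levels. An unadjusted p under 0.05 was found for 5 of 6, against 186 of all genes (47.1%) and 127 of those of at least 100 CPM (70.2%). The median size of the log2 ratio, whatever its sign, was 0.11 for the 6 genes, 0.13 for the tested genes of at least 100 CPM and 0.27 for all genes. The median log2 ratio, replicate 2 over replicate 1, was 0.01 for the 6 genes and -0.03 for all genes.

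On chromosome 17, both members were lower in replicate 2. Mir99b had a log2 ratio of -0.22 (95% interval -0.25 to -0.19, exact adjusted p = 4.03e-40), and Mir125a of -0.30 (-0.35 to -0.26, exact adjusted p = 1.48e-42). Mirlet7e between them had a log2 ratio of -0.06 (-0.10 to -0.02, exact adjusted p = 0.00485), and its interval did not overlap theirs. The 3 genes of this locus therefore did not differ by the same factor.

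On chromosomes 16 and 9, Mir99a and Mir100 were higher in replicate 2. Mir99a had a log2 ratio of 0.08 (0.06 to 0.09, exact adjusted p = 3.62e-28) and Mir100 of 0.10 (0.07 to 0.12, exact adjusted p = 3.67e-12). Their intervals did not overlap those of Mir99b and Mir125a. Mir125b-1, at 0.12 (0.01 to 0.23), did not pass the adjusted test (exact adjusted p = 0.0634), and Mir125b-2, at -0.05 (-0.25 to 0.16), did not either (exact adjusted p = 0.764). With 384 and 418 reads, a difference of Mir125b-2 of the size of that of Mir99a was not detectable at this depth.

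As a result the share of Mir99b among the miR-99/100 reads and of Mir125a among the miR-125 reads was lower in replicate 2. Mir125a held 85.2% (84.6% to 85.9%) of the counted miR-125 reads in replicate 1 and 81.5% (80.8% to 82.3%) in replicate 2. Mir351 was also lower in replicate 2, with a log2 ratio of -0.42 (-0.45 to -0.40, exact adjusted p = 2.00e-204). So was Mirlet7c-1, the let-7 gene of the Mir99a locus, at -0.30 (-0.44 to -0.16, exact adjusted p = 9.14e-05). Mir99a was higher in replicate 2, so Mir99a and Mirlet7c-1 on chromosome 16 did not move in the same direction in counted reads. The counts of Mirlet7c-1 may lack reads that also match Mirlet7c-2, and Mir125b-2, the third gene there, did not pass the adjusted test. The summed skeletal muscle list had a log2 ratio of -0.28, erythroid -0.15, leukocyte -0.17, epithelial -0.66 and liver -1.48, while endothelium stood at 0.14, smooth muscle and stroma at 0.25, and neural and glial at 0.89. These sums follow their leading genes. Without Mir206 the muscle list had a log2 ratio of 0.23, the opposite direction, and its other 8 genes were all higher in replicate 2. Of these, Mir1a-2, Mir208b and Mir486 passed the adjusted test, while Mir1a-1, Mir133a-1, Mir133b and Mir499 did not. Mir133a-2 had too few reads to be tested. Without Mir143 the smooth muscle and stroma list stood at -0.39, also the opposite direction, with Mir214 at 3900 and 2781 CPM. On the neural and glial list 3 of 10 genes were detected, and the 3 Mir124a genes and Mir9-2 had 0 reads. Reads that match several Mir124a or Mir9 copies would not be counted on any of them, so these counts do not show absence. The part of these cells in the differences between the libraries was not tested.

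**Figure D5:**
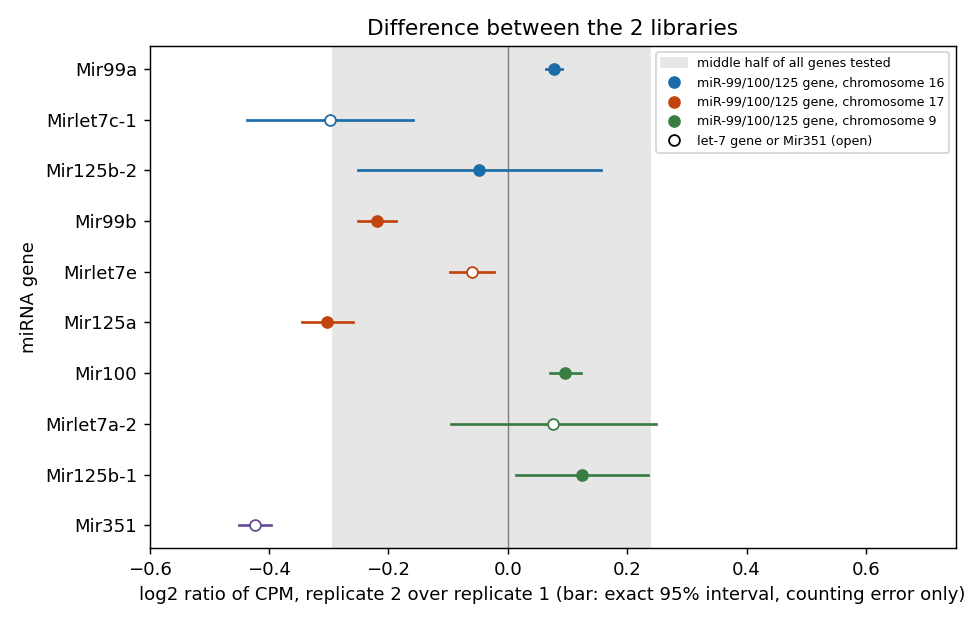
Log2 ratio of CPM, replicate 2 over replicate 1, for the genes of the 3 loci and Mir351, with exact 95% intervals for counting error and a grey band for the range from the lower to the upper quartile of 395 tested genes, -0.29 to 0.24. Mir99b and Mir125a lie at -0.22 and -0.30, and Mir99a and Mir100 at 0.08 and 0.10.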

How the data were processed

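Small RNA libraries of the gastrocnemius of 2 mice were analysed. The authors deposited raw read counts per miRNA gene, without strand, sense and antisense, on build mm10 with GENCODE M21, per the labels and the descriptions beside the counts. Neither aligner nor trimming nor mismatch limit is given in the sources used here. The strand of the columns was read from their layout, known from STAR gene counts, and from their totals. mm10 is a C57BL/6J sequence, and the animals also carry a CAST chromosome set.

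Counts were scaled to CPM of sense reads on miRNA genes, and 4 summary rows stayed out. They held 56.9% and 61.2% of the reads in replicates 1 and 2. All 2202 identifiers matched GENCODE M21, which gave coordinates, hosts and precursors. Mature sequences are RefSeq's. Precursor sequences are not reported here. Precursors were searched on both strands for shared windows of 22 bases at other places. Copies outside annotated precursors were not searched. The libraries, 1 animal each, were compared gene by gene with an exact conditional binomial test in SciPy 1.17.1, with at least 10 counts over both libraries, 0.5 added to each count for log2 ratios and exact 95% intervals. The test was checked on simulated data. A single group allows no count model with a contrast. edgeR 4.0.16 and DESeq2 1.42.0 gave alternative scalings. The labels number the females separately and give both the same donor entry, read here as that of the strain, so the spread between them may hold animal and technical differences. Named genes were the 6 genes, the let-7 genes of their loci with their copies, genes sharing a 5p seed, miR-10 genes, and the gene next above and next below each in level. The members, lists and tests were chosen with earlier results of these data known.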

Additional observations from a re-analysis of the deposited data

How the results depend on the processing

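No paired analysis was possible because all samples form 1 group. The 4 called members kept their direction and their side of the threshold with TMM factors, DESeq2 size factors and counts without strand. With 1 added to each count they kept their direction, but the added count enters the log2 ratio alone and cannot change the test. The log2 ratios of these 4 members ran from 0.07 to 0.13 for Mir99a, 0.09 to 0.15 for Mir100, -0.23 to -0.17 for Mir99b and -0.31 to -0.25 for Mir125a. Mir125b-1 passed the adjusted test with DESeq2 size factors (0.18) and without strand (0.16). That made 5 called members under each, among 167 and 139 calls over all genes (163 with scaling by total reads). With scaling by total reads, 68.5% of the tested genes of at least 100 CPM were called. That share is not given for the other settings, so the 5 calls are not set against genes of similar level. Mir125b-2, never called, changed sign, from -0.05 to 0.00616, with DESeq2 size factors. No member was called at 2-fold under any setting run, nor, with scaling by total reads, at a ratio limit of 5 to 4. Over all genes, calls at 2-fold numbered 28, 13 with a minimum of 50 counts, for which fewer genes were tested, and 70 at the limit of 5 to 4. The share of the 6 genes, 3.69% ± 0.0407, was 4.13% of a total without Mir206 and 4.42% of reads counted without strand, where the total is smaller and their counts are the same. Single libraries gave 3.66% and 3.72%. Dividing by precursor length moved 9 of 15 ratios by more than their SD, and among the members no order changed. Depth limits Mir125b-2 most, with 384 and 418 reads, and reads that match both Mir125b copies may limit these genes at any depth.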
